A study of Mus musculus with 90 samples.

Results

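Chromatin at 7 genes for transcription factors that specify the germ layers was examined in mouse embryonic stem cells. The genes were T, Eomes, Foxa2, Sox17, Gata6, Pax6 and Olig2. They were chosen by name, as developmental regulators usually described as poised in these cells, and not by a threshold on any measured value. A window was the gene's interval in the build mm9 with 20 kb added on each side, and every peak of 5 deposited peak lists that touched a window was taken. The windows held 135 peaks. They were 21 of the 25754 peaks of H3K4me3 replicate 1, 12 of the 19912 peaks of H3K4me3 replicate 3, 31 of the 25982 Mll2 peaks of serum 9172, 32 of the 26388 Mll2 peaks of serum 9175, and 39 of the 43544 Menin peaks.

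The series, of 90 samples, asked how the histone methyltransferase Mll2 shapes trimethylation of lysine 4 of histone H3 (H3K4me3) and gene expression in embryonic stem cells and during their differentiation. The 5 libraries used here were chromatin immunoprecipitation followed by sequencing (ChIP-seq) of the V6.5 embryonic stem cell line, all labelled wild type and grown with serum and leukaemia inhibitory factor. Both H3K4me3 libraries came from cells infected with a lentiviral control hairpin, shGFP, and were made with a homemade antibody, #28. The Mll2 libraries, 1 for each homemade serum, and the single Menin library, made with a commercial antibody, carry no hairpin in their labels, so the mark and the proteins were measured in different preparations. The labels do not say whether the libraries were separate cultures. The libraries kept 21936546 and 12277583 tags for H3K4me3 (replicates 1 and 3), 19584961 and 13739094 tags for Mll2 (sera 9172 and 9175) and 11550409 tags for Menin after removal of duplicates. A site missing from a list was therefore not called at that depth, which does not show that it lacked signal.

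H3K4me3 is deposited at promoters by complexes of the COMPASS family. Mll2 is a catalytic subunit of one such complex, and its CXXC domain binds DNA with unmethylated CpG. Menin, the product of Men1, is a shared subunit of the complexes built on Mll1 and Mll2. In embryonic stem cells, promoters of silent developmental regulators are known to carry H3K4me3 together with the Polycomb mark H3K27me3, a state called bivalent or poised. Neither H3K27me3 nor expression was analysed here, so the poised state of these genes was not tested.

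The promoters of the genes are shown first because CpG is the letter pair that the CXXC domain of Mll2 recognises. RefSeq promoter sequences of build GRCm38.p6, each with 250 bases before and 50 bases after an annotated start, were found for 5 of the 7 genes. Sox17 and Gata6 had no entry. The 5 genes had 8 promoters. Their CpG counts ran from 10 at Eomes to 25 at Olig2 with a median of 16.5, against a median of 7 (quartiles 3 and 20) over all 32851 promoters of the table. T had 17 CpG, the Foxa2 promoters had 12, 23 and 13, and the Pax6 promoters had 18 and 16. Each of the 8 thus held more CpG than the median promoter, and Foxa2 (its second promoter) and Olig2 exceeded the upper quartile. Of the promoters with the fewest and the most CpG, Eomes had 47.3% G or C and Olig2 65%. The letters TATAAA, searched on both strands, occurred in 2 of the 8 promoters, against 13.6% of all. The letters CCAAT, also on both strands, occurred in 5 of the 8, against 37.4% of all. Matches of a motif on opposite strands can overlap and were not separated. The build differs from that of the peaks, so these letters were not placed within peaks. The 4 promoters below span the range of CpG among the genes, with capitals marking CpG, written 5′ to 3′ on the strand of the gene. They lie at chr17:8434173-8434472 (T, plus strand), chr9:118477939-118478238 (Eomes, plus strand), chr2:148045899-148046198 (Foxa2, its second promoter, minus strand) and chr16:91225300-91225599 (Olig2, plus strand) of GRCm38.p6.
T: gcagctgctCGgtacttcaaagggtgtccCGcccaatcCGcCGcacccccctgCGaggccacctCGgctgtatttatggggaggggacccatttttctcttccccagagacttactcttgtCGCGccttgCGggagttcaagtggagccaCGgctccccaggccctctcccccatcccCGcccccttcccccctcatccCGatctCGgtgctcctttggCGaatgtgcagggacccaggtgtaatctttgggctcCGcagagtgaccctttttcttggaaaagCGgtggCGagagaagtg
Eomes: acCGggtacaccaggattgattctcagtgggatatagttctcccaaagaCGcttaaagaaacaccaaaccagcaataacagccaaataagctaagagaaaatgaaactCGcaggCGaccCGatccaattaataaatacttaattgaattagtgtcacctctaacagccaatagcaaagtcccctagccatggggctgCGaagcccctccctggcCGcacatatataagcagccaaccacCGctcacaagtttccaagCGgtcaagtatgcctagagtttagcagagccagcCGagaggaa
Foxa2: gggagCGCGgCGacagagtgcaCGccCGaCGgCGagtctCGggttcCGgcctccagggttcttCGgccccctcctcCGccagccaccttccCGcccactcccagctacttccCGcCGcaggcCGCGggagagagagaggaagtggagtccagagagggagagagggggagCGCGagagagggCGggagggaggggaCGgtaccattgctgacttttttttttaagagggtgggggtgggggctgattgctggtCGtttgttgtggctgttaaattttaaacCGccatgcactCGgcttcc
Olig2: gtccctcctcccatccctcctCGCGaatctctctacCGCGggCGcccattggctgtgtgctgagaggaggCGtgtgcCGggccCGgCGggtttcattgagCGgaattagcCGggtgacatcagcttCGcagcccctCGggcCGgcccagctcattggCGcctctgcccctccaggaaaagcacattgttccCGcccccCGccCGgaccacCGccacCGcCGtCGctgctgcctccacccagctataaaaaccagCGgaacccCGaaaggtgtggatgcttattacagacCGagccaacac

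All 7 genes had H3K4me3 in both libraries, Mll2 with both sera and Menin within their windows. H3K4me3 regions were defined genome-wide as merged regions with a peak in both H3K4me3 libraries, and there were 18894 of them. The region nearest to the start of each gene was taken as its main region. It covered the annotated start at T, Eomes, Foxa2, Gata6 and Olig2. It lay 3393 bp into the interval at Sox17 and 5823 bp into it at Pax6. Mll2 regions, merged regions with a peak of both sera, overlapped the main region at 7 of 7 genes, against 80.8% of all H3K4me3 regions. A Menin peak overlapped it at 7 of 7 genes, against 88.8% of all H3K4me3 regions. Both shares of all regions are high, so presence alone says little about these genes. The 3 kinds of list differed far more in how strong and how wide their peaks were at these genes.

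**Figure D1:**
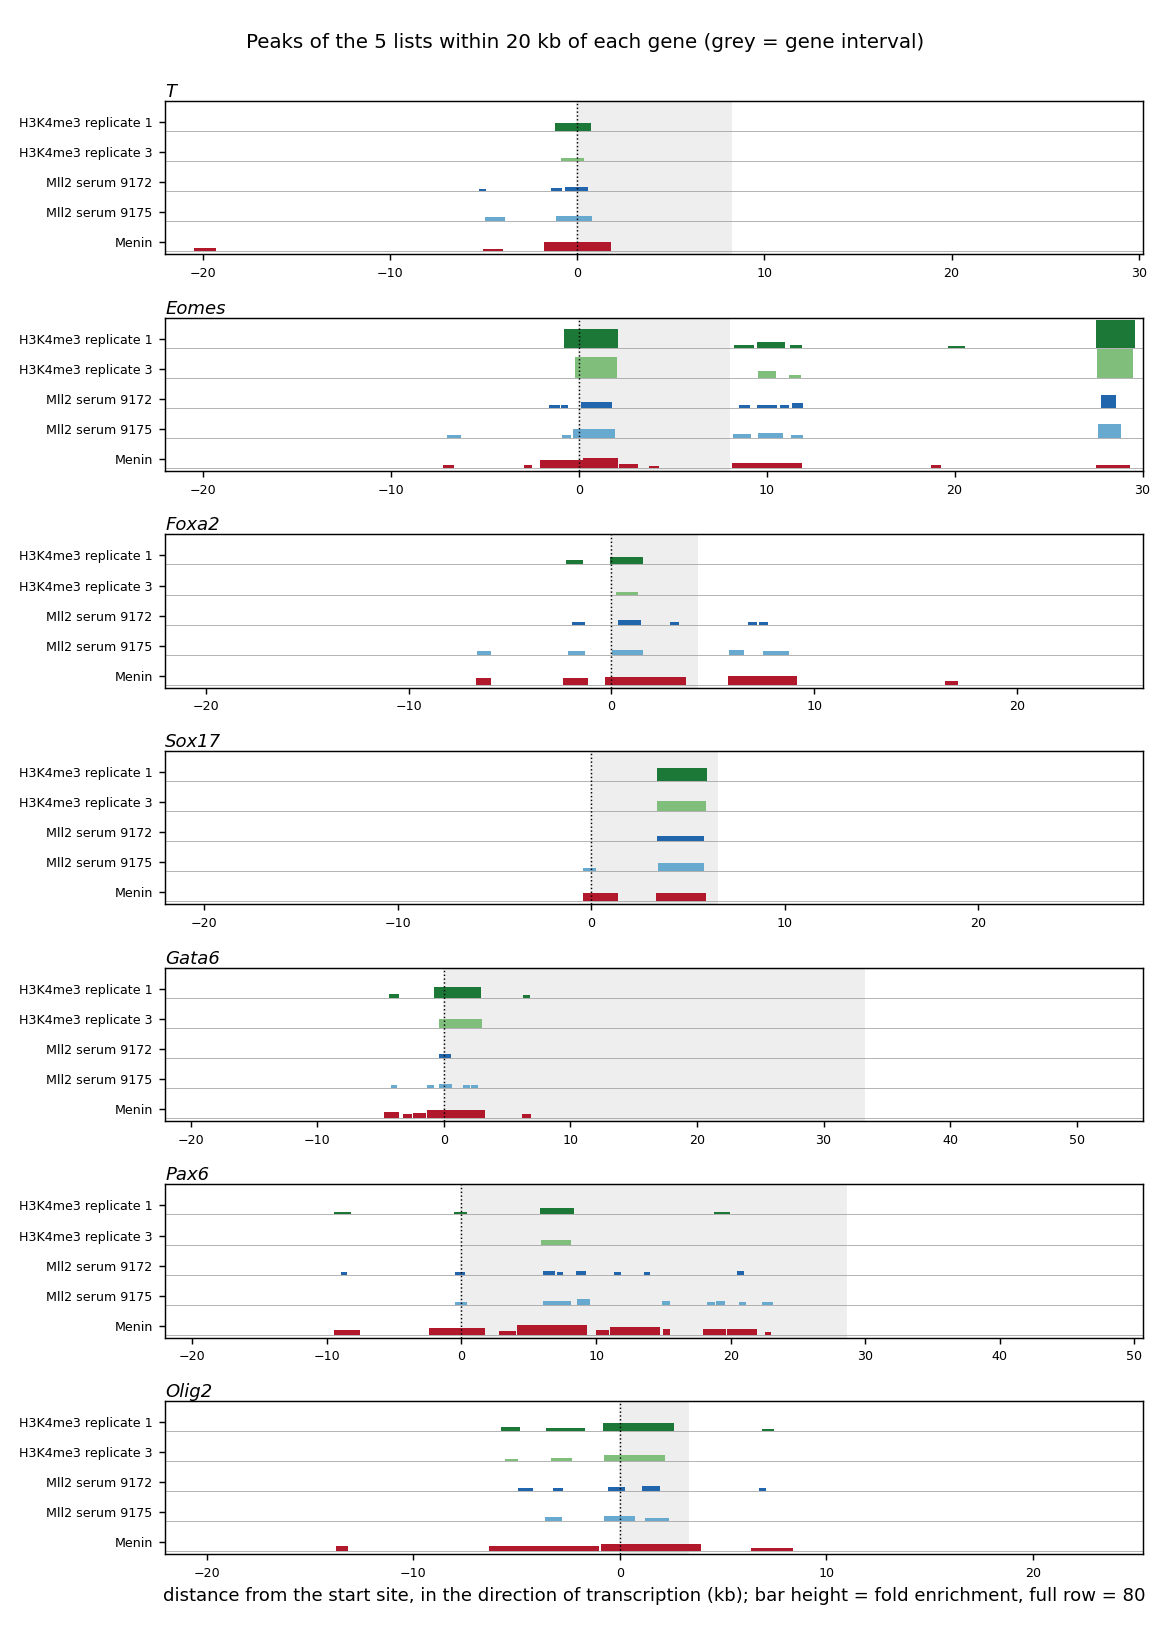
Peaks of the 5 lists in the window of each gene, against distance from the annotated start in the direction of transcription (kb), with bar height giving fold enrichment (a full line is 80) and grey the gene interval. Menin (red) runs past the H3K4me3 peak (green) at the start of T, Foxa2, Gata6 and Olig2, and the main H3K4me3 region of Sox17 and of Pax6 lies inside the gene.

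T (Brachyury) is a T-box factor of the primitive streak and of mesoderm. Its only H3K4me3 region, at chr17:8625998-8627945 (mm9), spanned 1948 bp across the start. Fold enrichment, the authors' ratio of ChIP tags to estimated background, was 22.77 in H3K4me3 replicate 1 and 9.41 in replicate 3. It was 10.44 for Mll2 with serum 9172, 13.04 with serum 9175 and 25.81 for Menin. Within their own lists these peaks stood at percentiles 49.5 and 16.5 for H3K4me3 and at percentiles 45.1 and 52.5 for Mll2, near or below the middle. The Menin peak ranked 664 of 43544. It was 3575 bp wide and reached 565 bp beyond the H3K4me3 region upstream and 1062 bp beyond it downstream. A further site about chr17:8621929-8623325 upstream of T had weak Mll2 peaks (fold 7.05 and 10.6) and a weak Menin peak (6.31) and no H3K4me3 peak.

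Eomes, a T-box factor of mesendoderm and trophoblast, had the strongest peaks of the 7 genes. Its main region, chr9:118386502-118389393, was 2892 bp wide. Fold enrichment was 51.11 and 55.1 for H3K4me3 (replicates 1 and 3), 15.66 and 25.27 for Mll2 (sera 9172 and 9175) and 27.51 for Menin. Eomes was the only one of the 7 whose H3K4me3 fold lay above the median of the list in both libraries. Menin covered the region with 2 adjoining peaks, 2287 bp and 1891 bp wide, with fold 21.32 and 27.51. Eomes also had a cluster 3′ of the gene, between 8158 and 11936 bp from the start, where both H3K4me3 libraries, both sera and Menin had peaks. H3K4me3 fold there reached 15.98 in replicate 1 and 17.0 in replicate 3, far under that at the start. The strongest H3K4me3 of the window was not at Eomes. It lay at the far edge, chr9:118414821-118416889, with fold 74.75 in replicate 1 and 77.03 in replicate 3, and with Mll2 at 35.06 and 38.31. Menin there was weak by fold, 8.55, below the 9.19 that is the median of its list. By tags per kb it was not, with 70.3 and percentile 88.6 of the Menin list. In gene order the next protein-coding gene after Eomes in GRCm38.p6 is Golga4, which was named after these values were seen and was not placed on mm9.

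Foxa2, a forkhead factor of the definitive endoderm, node and notochord, had the lowest H3K4me3 fold of the 7 genes in replicate 3 and the lowest but Pax6 in replicate 1. Its main region, chr2:147871250-147872863, was 1614 bp wide, the narrowest of the 7. Fold was 18.73 in replicate 1 and 6.95 in replicate 3, which put the second peak at rank 18670 of 19912. Mll2 stood at 11.94 and 13.04, and Menin at 21.13 over 4017 bp. By fold the H3K4me3 peak of replicate 3 was thus among the weakest of its list, and the Menin peak over it among the strongest of its own. By tags per kb the replicate 3 peak stood higher, at percentile 20.1. The replicate 1 peak stood at percentile 45.4 by fold. Menin extended 2139 bp further into the gene than the mark. H3K4me3 replicate 1 also had a peak upstream at chr2:147874210-147875040 (fold 11.5), where replicate 3 had none and where both sera (8.21 and 10.6) and Menin (18.78) had peaks.

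Sox17, a factor of the endoderm and of vascular endothelium, had a single H3K4me3 region, chr1:4481500-4484107, inside the gene interval. Fold was 34.33 and 26.18 for H3K4me3, 14 and 20.94 for Mll2 and 22.01 for Menin. All 5 peaks had nearly the same borders, with widths of 2608, 2526, 2431, 2414 and 2591 bp. No H3K4me3 peak touched the start given by the interval. Menin had a second peak there, chr1:4486104-4487937, 1834 bp wide with fold 22.19, close in strength to that over the mark. With serum 9175 Mll2 had a weak peak in it (fold 7.65), and with serum 9172 none.

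Gata6, a zinc-finger factor of primitive and definitive endoderm, had the widest H3K4me3 of the 7 genes. The main region, chr18:11051683-11055553, spanned 3871 bp and was wider than 94.6% of all H3K4me3 regions. Fold was 27.73 and 23.64 for H3K4me3, 10.44 and 9.78 for Mll2 and 20.87 for Menin. The called Mll2 peaks under the broad mark differed between the sera. Serum 9172 gave 1 peak of 917 bp, whereas serum 9175 gave 4 peaks of 557 to 1051 bp over the same region. Apart from the leading peak (deposited score 163.94), those of serum 9175 had scores of only 50.3 to 68.83. Whether Mll2 was absent between the peaks was not tested. Menin covered the whole region with 1 peak of 4582 bp.

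Pax6, a paired-box factor of the eye, forebrain and neural tube, had its main region inside the gene at chr2:105514823-105517369 (2547 bp). Fold was 18.53 and 12.52 for H3K4me3, 9.7 and 9.1 for Mll2 and 25.9 for Menin. These were the lowest H3K4me3 value of replicate 1 and the lowest Mll2 values of the 7 genes, beside the second highest Menin value. The annotated start had a weak H3K4me3 peak in replicate 1 alone (fold 5.85). Mll2 was weak there too (6.63 and 7.58), while a Menin peak of 4159 bp with fold 18.57 covered it. Of all the windows Pax6 had the most Menin sequence, 22.2 kb in 10 peaks, against 6.05 and 2.23 kb of H3K4me3 (replicates 1 and 3).

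Olig2, a basic helix-loop-helix factor of motor neuron and oligodendrocyte progenitors, had 3 H3K4me3 regions. The main one, chr16:91224874-91228308, was 3435 bp wide. Fold was 21.85 and 15.89 for H3K4me3, 13.43 and 13.86 for Mll2 and 21.08 for Menin. Each serum gave 2 Mll2 peaks within it, and Menin gave 1 of 4835 bp. The remaining regions lay upstream with H3K4me3 fold of 6.45 to 10.53. A Menin peak of 5336 bp, the widest of any window, covered both of them at fold 15.15.

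H3K4me3 at the 7 genes was of modest strength and mostly wide. The median fold of the main regions was 22.77 in replicate 1 and 15.89 in replicate 3, whereas the median over all H3K4me3 regions was 39.6 and 34. Fold exceeded the median of the list at 3 of 7 genes in replicate 1 (Eomes, Sox17 and Gata6), against 66.9% of all H3K4me3 regions. It did so at 1 of 7 (Eomes) in replicate 3, against 52.4%. By tags per kb the replicate 1 peaks ran from 79.3 at Foxa2 to 237 at Sox17 (median of the list 124.8), and those of replicate 3 from 41.6 at Foxa2 to 190.7 at Eomes (109.5). Above the median of the list by tags per kb were Eomes, Sox17 and Olig2 in replicate 1, against 67.1% of all H3K4me3 regions, and Eomes in replicate 3, against 52.4%. Taking in each window the peak with most tags, the median percentile by tags per kb was 42.0 for H3K4me3 (mean of the libraries), and 21.2 when ranked among peaks of at least 1 kb alone. In width, main regions stood between percentile 36.7 of all regions at Foxa2 and percentile 94.6 at Gata6, and 6 of 7 were wider than the median region of 1912 bp. The Gata6 peak ranked 1103 by width in replicate 1 and 714 in replicate 3.

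Mll2 at the main regions was near the middle of its lists on the median. Median fold was 11.94 with serum 9172 and 13.04 with serum 9175, against 15.66 and 17.93 over all H3K4me3 regions with a peak of that serum. Fold was above the median of the list, 11.19 and 12.23, at 4 and 5 of the 7 genes, against 58.8% and 62.3% of all H3K4me3 regions. None of the 7 had Mll2 peaks in the strongest 10% of both lists, against 8.97% of all regions. With a fold of at least 10 required of the leading peak in both H3K4me3 libraries and both sera, 3 of the 7 main regions (Eomes, Sox17 and Olig2) passed, against 59.3% of all H3K4me3 regions. T and Foxa2 fell short in H3K4me3 replicate 3, and Gata6 and Pax6 in Mll2. By tags per kb the Mll2 peaks ran from 49.5 to 78.5 with serum 9172 (median of the list 55.4) and from 38.1 to 81.6 with serum 9175 (42.6), lowest at Pax6 and at Gata6 and highest at Eomes. The median percentile by tags per kb, again from the peak with most tags in each window, was 51.0, and 22.6 among peaks of at least 1 kb alone. In width, Sox17 ranked 427 and 713 (sera 9172 and 9175), the widest Mll2 of the 7 genes with each serum. More than 1 Mll2 peak of the same serum lay on the main region at 5 of 7 genes (T, Eomes, Gata6, Pax6 and Olig2), against 10% of all regions. Both sera gave this only at Eomes and Olig2. At T and Pax6 it was serum 9172 alone, and at Gata6 serum 9175 alone. At all 5 genes these peaks lay less than 1 kb apart, so joining at that distance would leave 1 peak per serum. Some were weak, with a deposited score of 50.3 at Gata6 (serum 9175) and 53.12 at Eomes (serum 9172). The count thus depends on how signal was split into peaks, and its share of all regions was not computed for joined peaks.

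Menin stood apart from both. Its peaks over the main regions had fold 25.81 at T, 27.51 at Eomes, 21.13 at Foxa2, 22.01 at Sox17, 20.87 at Gata6, 25.9 at Pax6 and 21.08 at Olig2. The median of the 7 was 22.01, and the median over all H3K4me3 regions with Menin was 11.57 (quartiles 8.94 and 15.2). All 7 values lay above that upper quartile. They ranked from 537 (Eomes) to 1482 (Gata6) among 43544 Menin peaks, which is the top 1.23% to 3.40% of the list. A fold in the strongest 10% of the list, 15.65 or more, was found at 7 of 7 genes, against 20.7% of all H3K4me3 regions. The single Menin library gives no spread between replicates, and its antibody and input differ from those of the other libraries.

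**Figure D2:**
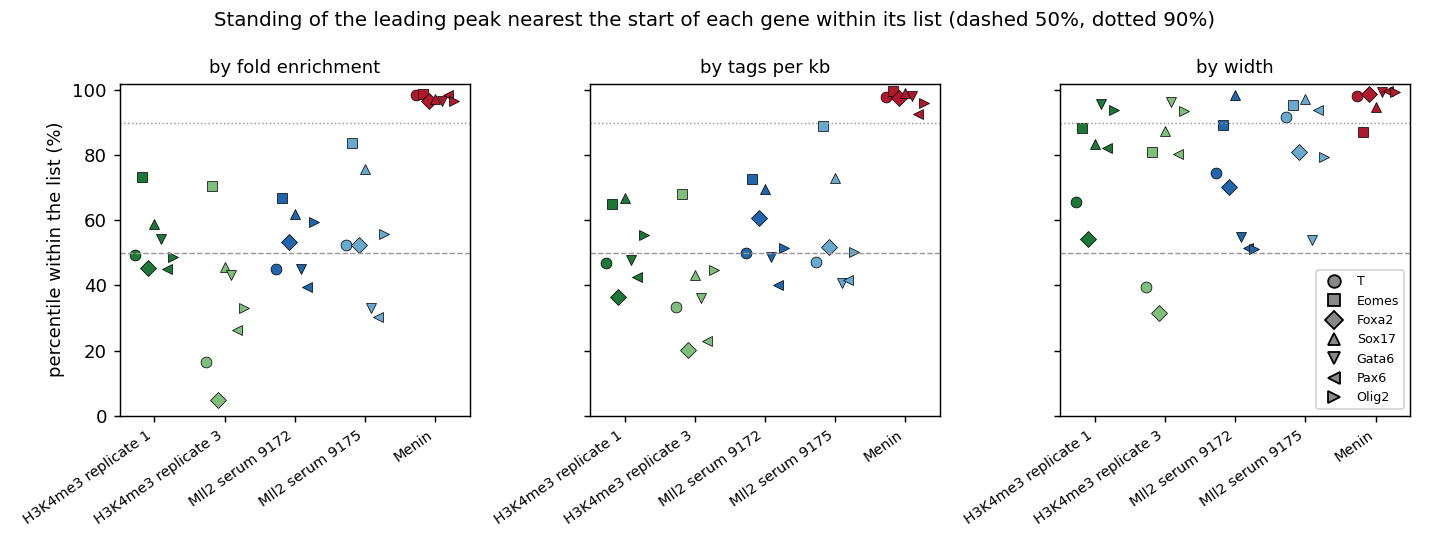
Percentile of the leading peak over the main region of each gene (symbols) within its own list, by fold enrichment, tags per kb and width, for the 5 libraries, with dashed and dotted lines at 50% and at 90%. By fold and by tags per kb all 7 Menin peaks lie above the upper line, and no H3K4me3 or Mll2 peak does.

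By tags per kb, a density that does not use the estimated background, the Menin peaks again came high in the list. Eomes had 153.4 tags per kb and ranked 110, the top 0.253%. Pax6 had 77.4 tags per kb, ranked 3154 and was the lowest of the 7, in the top 7.24%. By width Pax6 came first, at rank 149 with 5178 bp, followed by Olig2 at 204, Gata6 at 265, Foxa2 at 459 and T at 731. Sox17 ranked 2195, and Eomes, with its main region shared between adjoining peaks, ranked 5551. Taken as single called peaks, Pax6 thus had the widest and least dense Menin of the 7, and Eomes the densest and narrowest. The Eomes width is that of the 1891 bp peak alone, beside an adjoining peak of 2287 bp. It is therefore not the full width of Menin over that region.

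The high rank of Menin was also present among regions with like H3K4me3. All H3K4me3 regions were divided into 10 classes by their fold in replicate 1, a comparison added after the data were seen. Within its class, Menin fold at the 7 genes stood between percentile 92.8 (Gata6) and percentile 97.6 (Pax6). The class medians of Menin fold were 10.57 to 12.1. For Pax6, 35 of the 1435 regions of its class that had Menin had a higher Menin fold, and for Sox17, which had the most, 124 of 1763. H3K4me3 regions over 5 kb are a further set, although the widest main region of the 7 genes, at Gata6, was 3871 bp. The median Menin fold of regions over 5 kb was 13.24. Of these 342 regions, 31% had Menin in the strongest 10%, against 20.7% of all H3K4me3 regions. Their median H3K4me3 fold in replicate 1 was 62.0, against 22.77 at the 7 genes, so the sets are not matched. A relation of Menin strength to the width of the mark was not tested.

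**Figure D3:**
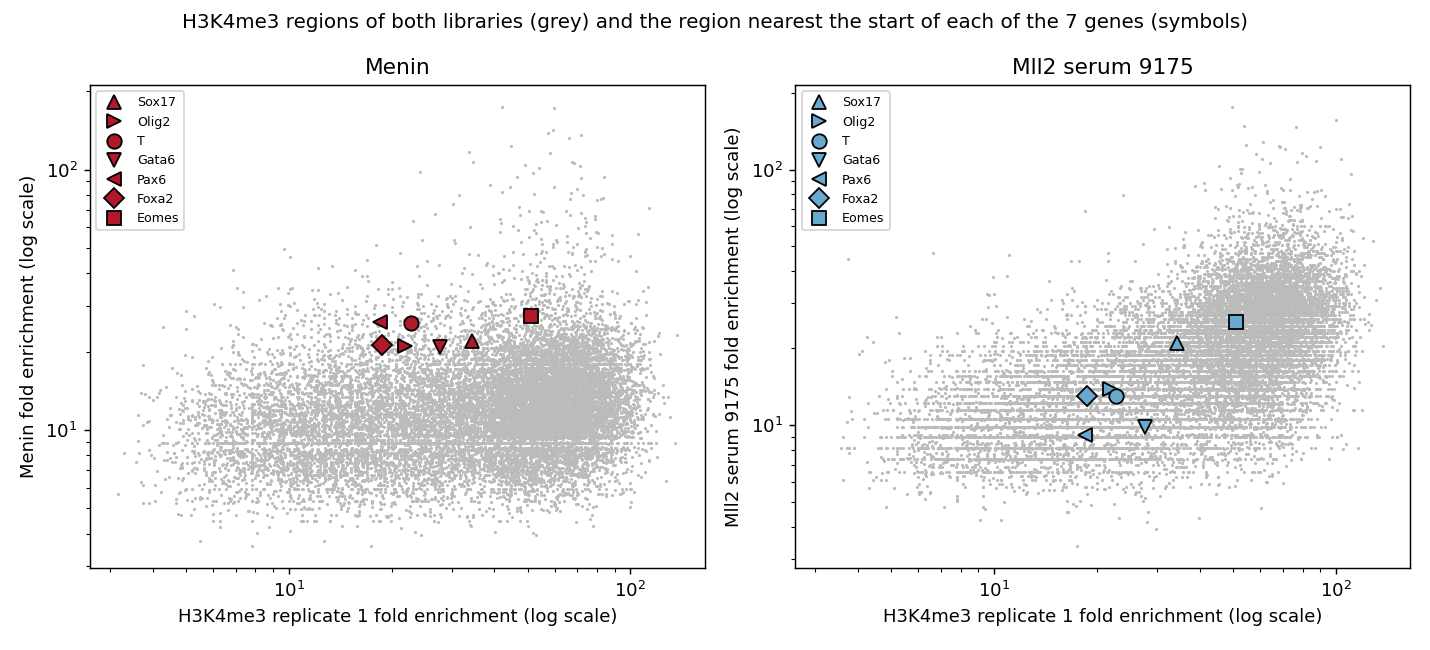
Menin (left) and Mll2 serum 9175 (right) fold enrichment against H3K4me3 replicate 1 fold enrichment, both axes logarithmic, for all H3K4me3 regions of both libraries (grey) and the main regions of the 7 genes (symbols). Menin fold of the 7 is 20.87 to 27.51 while their H3K4me3 fold runs from 18.53 to 51.11. Their Mll2 fold runs from 9.1 to 25.27. Both sets of symbols lie within the grey cloud, those of Menin in its upper part.

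Menin peaks were also wide relative to the mark. The Menin peak over the main region was wider than that region at 5 of 7 genes (T, Foxa2, Gata6, Pax6 and Olig2), against 19.5% of all H3K4me3 regions. The share was higher among regions with like H3K4me3. It was 30.2% in the class of Foxa2 and Pax6 and 25.5% in that of T, Gata6 and Olig2. The ratio of Menin width to H3K4me3 width was 1.84 at T, 0.654 at Eomes, 2.49 at Foxa2, 0.993 at Sox17, 1.18 at Gata6, 2.03 at Pax6 and 1.41 at Olig2. The median over all regions with Menin was 0.737, with quartiles of 0.559 and 0.961. Foxa2, with the narrowest mark, had the highest ratio, and only Eomes fell below the upper quartile of all regions. The Eomes ratio uses the 1891 bp peak alone, without the adjoining peak of 2287 bp. Menin both wider than the mark and in the strongest 10% by fold was found at 5 of 7 genes, against 6.1% of all regions. In regions over 5 kb the Menin peak was wider than the mark in 5.56%. With peaks of a library less than 1 kb apart joined, 6 of the 7 genes had Menin wider than H3K4me3. The share of all H3K4me3 regions was not computed for joined peaks, so this count has no background beside it.

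**Figure D4:**
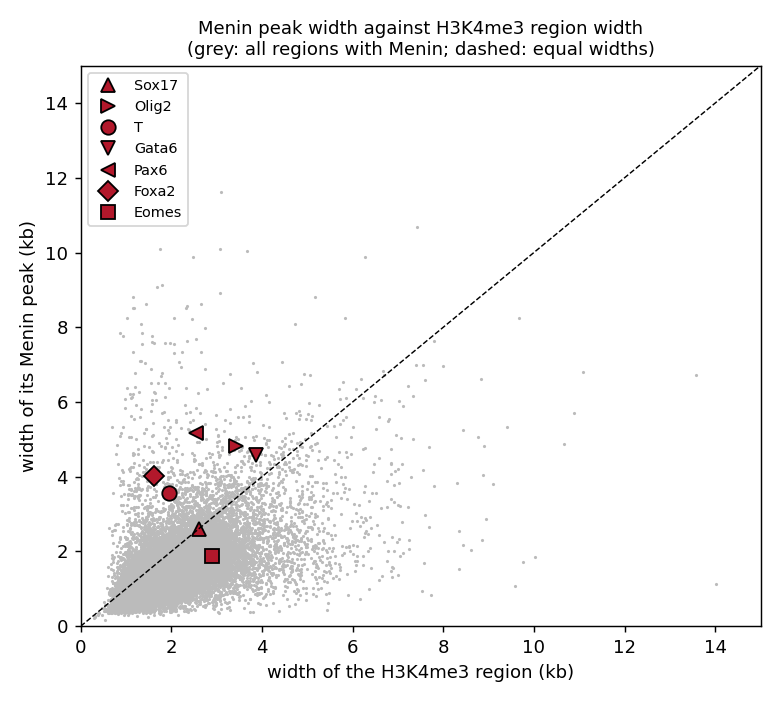
Width of the Menin peak against width of the H3K4me3 region (kb) for all H3K4me3 regions with Menin (grey) and for the 7 genes (symbols), with the dashed line at equal widths. T, Foxa2, Gata6, Pax6 and Olig2 lie above the line, Sox17 lies on it with a ratio of 0.993 and Eomes lies below it. For Eomes only the leading of its adjoining Menin peaks is plotted.

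Over the whole windows Menin covered 76.3 kb, H3K4me3 34.2 kb (replicate 1) and 20.9 kb (replicate 3), and Mll2 22.8 kb (serum 9172) and 32.5 kb (serum 9175). Relative to H3K4me3 replicate 1, Menin covered 2.23 times as much in the windows and 1.07 times as much over the whole lists. Mean density in the covered sequence was 126.9 and 95.2 tags per kb for H3K4me3, 55.8 and 42.6 for Mll2 and 71.2 for Menin, so the wide Menin cover was not thinner than that of Mll2 in tags per kb. Menin peaks over 3 kb numbered 9 of the 39 in the windows, against 3.11% of the Menin list.

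Not all Mll2 or Menin in the windows lay on H3K4me3. Peaks that overlapped no H3K4me3 peak of either library were 9 of 31 Mll2 peaks with serum 9172 (29.0%), 10 of 32 with serum 9175 (31.3%) and 19 of 39 Menin peaks (48.7%). In the whole lists these shares were 25.4%, 26% and 49.1%, so the windows were near the background in this respect. The Mll2 peaks in the windows all overlapped a Menin peak, as did all H3K4me3 peaks but 1 of the 21 of replicate 1. In the whole lists Menin overlapped 79.2% (serum 9172) and 79.6% (serum 9175) of Mll2 peaks and 77.7% and 87.3% of H3K4me3 peaks (replicates 1 and 3), so such overlap was common in the lists as a whole. Of the 39 Menin peaks, 16 were in the strongest 10% of the list, and 4 of these had no H3K4me3. In the whole list 7.02% of the 4459 Menin peaks of that strength overlapped no H3K4me3.

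The 4 strong Menin peaks without H3K4me3 lay at Foxa2, Sox17 and Pax6. At Foxa2 one lay downstream at chr2:147863639-147867051, 3413 bp wide with fold 23.63 (rank 920), a value above the 21.13 at the start of the gene. Both sera had Mll2 peaks in it, with fold 5.97 and 8.21 for serum 9172 and 9.78 and 11.41 for serum 9175. A narrower one lay upstream at chr2:147878748-147879454, with fold 17.88 and an Mll2 peak of serum 9175 (9.1) at nearly the same borders. The Sox17 one was that over the annotated start, described above. At Pax6 it lay within the gene at chr2:105520029-105523734, 3706 bp wide with fold 21.65, and serum 9172 gave 2 weak Mll2 peaks in it (6.45 and 6.71). The second Pax6 promoter was not placed on mm9, so whether this Menin peak covers it was not determined. The Mll2 peaks in these 4 were all below the median fold of their lists. Menin fold in 3 of the 4 was within the range of the main regions, and the narrow one upstream of Foxa2 was below it.

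The order of the genes was read from tags per kb per 1000000 kept tags, a density that allows for depth, with exact Poisson 95% intervals that cover counting error only. In H3K4me3 replicate 1, Sox17 (10.8, interval 9.97 to 11.7) and Eomes (10.2) came first and could not be separated. Olig2 (7.14) followed, and Gata6 (5.28), T (5.10), Pax6 (4.37) and Foxa2 (3.62) came below it, each overlapping its neighbour. In replicate 3, Eomes (15.5, interval 14.1 to 17.1) stood alone above Olig2 (7.36), Sox17 (6.96), Gata6 (5.30), T (4.83), Pax6 (3.62) and Foxa2 (3.39). Both libraries separated Olig2 from Gata6 below it, and both put T, Pax6 and Foxa2 last. This order holds for density only. By fold, Gata6 (27.73 in replicate 1 and 23.64 in replicate 3) stood above Olig2 (21.85 and 15.89). In replicate 1 T (22.77) did so too. Sox17 and Eomes differed between the libraries in opposite directions. Sox17 had 10.8 in replicate 1 and 6.96 in replicate 3, and Eomes had 10.2 and 15.5.

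Mll2 density spread less. With serum 9172 it ran from 4.01 at Eomes to 2.53 at Pax6, and with serum 9175 from 5.94 at Eomes to 2.77 at Gata6. Both sera gave Eomes, Sox17 and Foxa2 as the first 3, but no neighbours in either order had separate intervals. For Menin, Eomes (13.3, interval 11.8 to 14.9) was separate from Sox17 (9.42), and the remaining genes followed with overlapping intervals down to Pax6 (6.70). Foxa2, last for H3K4me3 in both libraries, came after only Eomes and Sox17 for Mll2 with both sera.

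**Figure D5:**
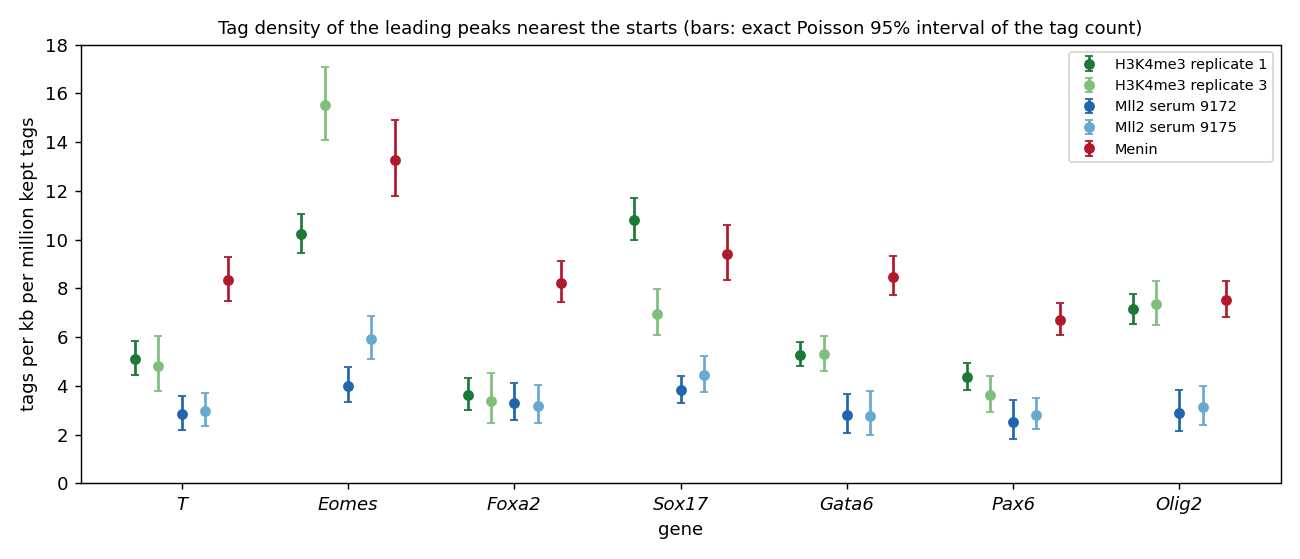
Tags per kb per 1000000 kept tags of the leading peak over the main region of each gene in the 5 libraries, with bars giving exact Poisson 95% intervals of the tag count. Eomes is the highest gene in 4 of the 5 libraries, Sox17 is highest in H3K4me3 replicate 1, and the Mll2 intervals overlap between most genes.

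The H3K4me3 libraries were compared over the same merged regions. The log2 ratio of replicate 1 to replicate 3, in tags of called peaks per 1000000 kept tags, ran from -0.24 at Eomes to 0.72 at T, with a median of 0.46. Over all 18894 regions the median was 0.26, with quartiles of -0.05 and 0.57. Peaks were called separately in each library, so this ratio also follows the called width. T (0.72) and Foxa2 (0.67) had peaks of 1948 and 1249 bp and of 1614 and 1081 bp, while their densities were close, as given above. Sox17 (0.68) had peaks of nearly equal width, 2608 and 2526 bp. For Mll2 the log2 ratio of serum 9172 to serum 9175 was negative at all 9 Mll2 regions on the main regions, from -1.23 at Olig2 to -0.19 at Gata6. The median over all 20082 Mll2 regions was -0.37, with quartiles of -0.64 and -0.09. This ratio follows called width too. At Olig2 the lowest value set a peak of 811 bp against one of 1498 bp, and the other Olig2 region had -0.22, so the genes were not ordered by it.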

How the data were processed

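ChIP-seq peak lists of 5 V6.5 embryonic stem cell libraries were analysed. Samples of the series' other assays, genotypes and hairpins were not used here. Per the file headers the authors called peaks with MACS 1.4.2 for each library against 1 input, with peaks taken below p = 1e-05 and duplicates reduced to 1 tag per position, a step that can compress the strongest peaks. Both Mll2 libraries had the same input. The submitters' processing notes name Bowtie 0.12.9 and mm9. Tag counts as deposited are whole numbers, without scaling for depth. Fold enrichment in the deposited lists is a ratio to the background MACS estimated, and the deposited score is minus 10 times the log10 of its p-value. The deposited false discovery rate is in percent and did not exceed 0.95%. At the leading Menin peaks of the main regions it was 0.41% to 0.87%, in a list that reached 0.92%. At those of H3K4me3 it was 0.01% to 0.2%, and at those of Mll2 at most 0.03%. Fold and score are the authors' own values and served only to describe, rank, stratify or filter peaks.

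Tags per kb, ranks, percentiles, merged regions (overlap of at least 1 bp) and exact Poisson intervals were computed with Python 3.11.15, pandas 2.3.3 and scipy 1.17.1. Overlap and percentiles were checked on the deposited lists with random subsets, direct counts and permuted ranks. For merging, the check was that every peak was accounted for. Of these checks, 7 of 7 returned the known answer. Over a region, the leading peak of a list was the one with most tags. No test between groups was made, since no groups were compared. The text names all 7 genes of the rule, and the members and lists were chosen with earlier results of these data known. Gene intervals are rounded to 100 bp. Strands came from the RefSeq promoter table for 5 genes, and for Sox17 and Gata6 from textbook knowledge. A planned count over other germ-layer regulators was not made, as no mm9 annotation was used here. Alternatives were other windows, stricter score or fold, a 50% overlap, single libraries or sera, joined peaks, other leading peaks and other rank measures. Classes of equal H3K4me3 fold, and the alternatives for the Menin counts, were added after the data were seen.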

Additional observations from a re-analysis of the deposited data

How the results depend on the processing

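Of 166 alternative values over 19 results, 52 lay outside the tolerance set for them, and 114 within it. The tolerance was a ratio of 1.5 for counts, 1 SD between libraries for H3K4me3 and Mll2 percentiles, and the exact binomial 95% interval for those of Menin. The Menin interval takes the peaks of the list as trials, so it covers neither the spread between genes nor that between libraries. For Mll2 the SD was 15.2 for width and 0.918 for tags per kb. The 52 and 114 thus pool unlike tolerances. The cause of the moves was not tested, except that a stricter limit leaves fewer peaks. All 7 genes kept H3K4me3, Mll2 and Menin under each window tried and with a score of at least 100. At a fold of at least 10, the genes with H3K4me3 and Mll2 of both sera fell from 7 to 3, and those with H3K4me3 in both libraries, and with H3K4me3 and Menin, to 5. The median width percentile of the leading peaks was 81.3 for H3K4me3, with 78.1 after joining peaks and 77.7 among peaks with a score of at least 100. It was 81.0 for Mll2, with 95.6 after joining peaks, 71.7 among peaks with a score of at least 100 and 74.9 for the peak nearest the start, and 98.9 for Menin (97.9 among peaks with a score of at least 100). The median percentile by tags per kb was 42.0 for H3K4me3, with 59.6 by tags per peak, 55.9 by score and 21.2 among peaks of at least 1 kb. It was 51.0 for Mll2, with 48.6 for the peak nearest the start, 56.3 in a window of 50 kb, 52.9 by fold, 65.2 by tags per peak, 60.7 by score and 22.6 among peaks of at least 1 kb. It was 97.9 for Menin, with 97.7 for the widest peak, 96.2 for the peak nearest the start, 97.2 by fold, 99.3 both by tags per peak and by score, and 95.1 among peaks of at least 1 kb. Leaving out each gene in turn gave width percentiles of 75.4 to 83.4 for H3K4me3, 74.5 to 82.6 for Mll2 and 98.6 to 99.2 for Menin, and percentiles by tags per kb of 41.0 to 45.7, 49.8 to 53.6 and 97.8 to 98.0. Mll2 peaks in the windows without H3K4me3 rose from 9 and 10 to 16 and 18 (sera 9172 and 9175) when replicate 1 was left out, and Menin peaks from 19 to 28. By width, 6 of 7 Menin peaks were in the strongest 10%. Menin was wider than H3K4me3 at 6 genes without replicate 1 and at 5 without replicate 3. The share of all H3K4me3 regions was not computed for these alternative counts. No paired analysis was possible because no groups were compared. With 1 Menin library and 1 library per serum, the spread between replicates could not be measured for either protein.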
